A study of Mus musculus with 24 samples.

Results

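The members of the BCL2 family described here are the antiapoptotic genes Bcl2l1, which encodes Bcl-XL, Bcl2, Mcl1 and Bcl2l2, and the effector genes Bax and Bak1. Of these 6 genes, 5 are among the 19057 that the platform annotation names. They were followed with every array probe that the platform annotation pairs with 1 of these symbols, 20 of 45281 probes. Bcl2 had 9 probes, Bcl2l2 had 5, Bcl2l1 had 4, and Mcl1 and Bak1 had 1 each. No probe was paired with Bax, which was not analysed here. The RNA came from 4 mouse multiple myeloma lines, each derived from Bcl-XL/Myc double transgenic animals of FVBN and BL/6 background, so that both transgenes are shared by all groups. Resistance to bortezomib, an inhibitor of the proteasome, is the label of 595sp VR and of 638bm VR, while 595sp and 638bm carry the label sensitive. Bortezomib was given at 33 nM, and RNA was taken untreated (0 h) and at 2, 8, 16 and 24 h, from 1 array per line and time except for 2 at 24 h, 24 arrays in all. The promoter that drives each transgene, whether a line is 1 clone, and whether a probe reads the transgene or the mouse gene are not given in the sources used here. The labels do not say that arrays came from separate cultures. The 2 lines of an arm therefore serve as its replicates, and p-values measure only the spread between these samples. In bulk RNA, fewer cells of a kind and less RNA per cell cannot be told apart.

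Proteins of the BCL2 family decide whether the outer mitochondrial membrane is breached in apoptosis. Bax and Bak form the pores, and Bcl-2, Bcl-XL, Mcl-1 and Bcl-w, the product of Bcl2l2, hold them and their BH3-only activators in check. Plasma cells depend largely on Mcl-1, a short-lived protein that the proteasome degrades, so that its protein level can move without its mRNA.

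A pair of promoters is shown because their genes differed in detection. The bright probes of Bcl2l2 stood above background in lines of 1 origin alone, and the probe of Mcl1 in every line. The bright Bcl2l1 probes and that of Bak1 also stood above background in every line. Both are RefSeq windows of 250 bases that end just before the gene's start, on the plus strand of GRCm38.p6, at chr14:54883175-54883424 for Bcl2l2 and chr3:95658471-95658720 for Mcl1. Capitals mark the GC box, GGGCGG on either strand.
Bcl2l2: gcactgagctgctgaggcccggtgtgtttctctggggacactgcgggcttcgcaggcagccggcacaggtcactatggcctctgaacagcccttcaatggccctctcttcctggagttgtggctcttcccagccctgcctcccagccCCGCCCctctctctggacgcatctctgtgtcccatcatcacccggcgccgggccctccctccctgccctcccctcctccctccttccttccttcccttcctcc
Mcl1: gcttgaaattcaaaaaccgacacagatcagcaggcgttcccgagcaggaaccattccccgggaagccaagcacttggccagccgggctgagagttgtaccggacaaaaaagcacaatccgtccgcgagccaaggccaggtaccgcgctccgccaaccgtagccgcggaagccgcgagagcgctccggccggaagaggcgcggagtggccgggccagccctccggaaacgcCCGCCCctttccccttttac
Each window held 1 GC box, which 32.7% of 32851 such windows hold. The Bcl2l2 window had 9 CG pairs and the Mcl1 window 26, against a median of 6 over all windows, and 40.3% of windows had at least as many as Bcl2l2 and 9.59% at least as many as Mcl1. Neither window held CACGTG, the E-box bound by MYC (6.02% of windows), GAANNTTC, the heat shock element core (6.69%), TGATGNAA, the ATF4 response element core (3.45%), or TGACGTCA, the cAMP response element (1.55%), each searched on both strands.

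The probes fell into bright and dim ones. Detection on an array required a log2 signal 2.326 SDs over the array's mode, with the SD taken from the mirror image of the values under the mode, and such a probe is called above background. By this rule 4 of the 20 probes stood above background on every array, namely both bright Bcl2l1 probes and those of Mcl1 and Bak1, and 7 stood above it on none. Detection on 2 or more arrays admitted 11 probes to the tests, 5 of Bcl2l2, 3 of Bcl2l1 and 1 each of Bcl2, Mcl1 and Bak1. The other 9 were not.

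**Figure D1:**
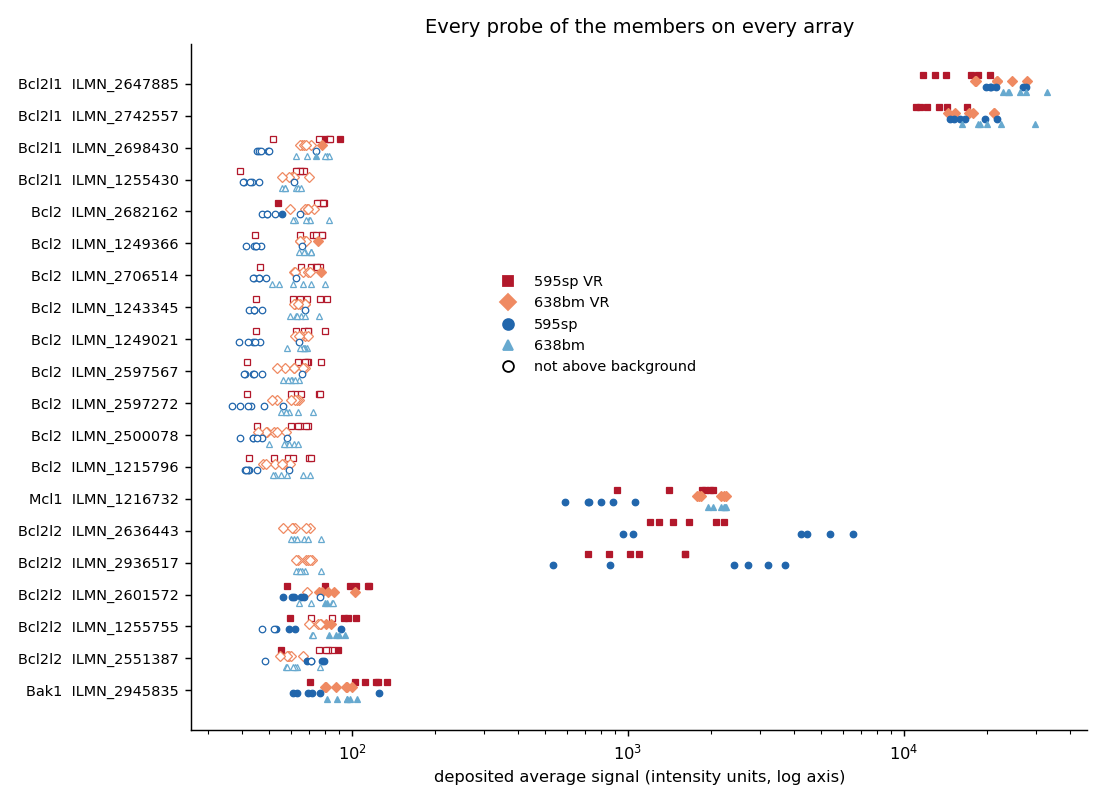
Deposited average signal (intensity units, log axis) of the 20 probes, 1 point per array and line, with open points for arrays on which the probe was not above background. The 9 Bcl2 probes lie between 36.78 and 82.71, 2 Bcl2l1 probes lie at 11073 or more on every array, and 2 Bcl2l2 probes split the lines by origin.

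Of the arrays, 33.7 to 39.9% of probes stood above background. Of 8 plasma cell markers with a probe, Sdc1, Xbp1, Irf4, Slamf7 and Mzb1 were above background on every array, and Prdm1, Tnfrsf17 and Jchain on none. The B cell gene Cd79b was above background on every array, and Cd3g of T cells and Csf1r of macrophages on 12 arrays each. Between these, Cd3d was above background on 7 arrays, Cd3e on 3, Cd4 on 1, Cd14 on 4 and the B cell gene Ms4a1 on 3. Cr2, Cd8a, Adgre1 and Lyz2 stood at background on all. Of stroma and erythroid markers, Col1a1 was above background on 1 array and Hba-a1 on 5, and Col1a2, Dcn, Col3a1 and Alas2 on none. The summed level of the 5 T cell markers ran between 151 and 1020 on resistant and 153 and 688 on sensitive arrays. That of 4 macrophage markers ran between 121 and 148 on resistant and 126 and 615 on sensitive arrays. The part of these markers in the results was not tested. The table's columns fell into 4 blocks of 6 with different background, the first with a median signal of 47.24 to 50.82 and the others with 62.58 to 79.54. That first block holds the first 5 arrays of 595sp and the untreated array of 595sp VR, and nothing in the labels names the blocks as chips. Both 24 h arrays of a line differed by an SD of 0.19 to 0.27 over the tested probes (log2).

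Bcl2l2, the gene of Bcl-w, gave the largest contrast among the lines. Levels below are log2 values after background correction and quantile normalization. On probe ILMN_2636443, 595sp VR read 10.53, 10.49, 10.18 and 10.58 at 0, 2, 8 and 16 h, and 9.98 and 10.03 on its 24 h arrays. The sensitive line 595sp read 12.76, 12.58, 13.42 and 12.82 at 0, 2, 8 and 16 h, and 10.23 and 9.95 at 24 h. In 638bm VR the probe read 4.78 to 5.25 and in 638bm 4.88 to 5.17, and it stood above background on none of their 12 arrays. Both lines of 595sp origin were above background on all 12 of theirs, so that no array of 1 origin overlaps the other origin. The share of all tested probes that separate the origins in this way is not given here. Differences between lines made up 96.7% of the variance of this probe, against a median of 62.3% over all tested probes. The second bright probe, ILMN_2936517, read 9.48 to 10.14 in 595sp VR and 9.36 to 12.54 in 595sp, against 4.99 to 5.40 in 638bm VR and 4.84 to 5.25 in 638bm. It had the same split of above and not above background, and both probes moved together within lines (Pearson r = 0.95 over 20 line-by-time values, which share their arrays).

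As a bound on the normalized levels, the level in 595sp was at least 122-fold that in 638bm on the first probe and at least 71-fold on the second. In 595sp VR it was at least 29.4-fold and at least 20.2-fold that in 638bm VR. These folds depend on the background correction and normalization. In the deposited signals, which still hold background, the highest array was 116-fold the lowest on the first probe and 59-fold on the second. Each bound sets the mean of the bright line, over its 5 times, against the mean of the lowest signals above background on the dim line's arrays. On the first probe these means were 12.34 in 595sp against a bound of 5.40 and a measured 5.01 in 638bm, and 10.36 in 595sp VR against a bound of 5.48 and a measured 4.98 in 638bm VR. Origin is carried by 2 lines each, with no test.

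Within the 595sp pair Bcl2l2 also differed between the resistant and the sensitive line until 24 h. With a single line on each side, sensitivity cannot be told apart from other differences between these lines. On ILMN_2636443, 595sp VR minus 595sp was -2.23, -2.09, -3.24 and -2.25 at 0, 2, 8 and 16 h, and -0.09 at 24 h. The pair stood apart at the first 4 times and met at 24 h, when the sensitive line had come down to the level of the resistant one. On ILMN_2936517 the differences ran between -2.93 and 0.02. The 638bm pair was not above background and has no such comparison.

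After 24 h of bortezomib Bcl2l2 fell in 595sp. Its change on ILMN_2636443 was -2.67, or 6.37-fold lower, and on ILMN_2936517 -2.50, or 5.64-fold lower. On the first 24 h array alone, which lies in the same column block as the untreated array, the changes were -2.53 and -2.63. The deposited signal of ILMN_2636443 in 595sp was 957 and 1041 at 24 h, against 5383 at 0 h. The dim probe ILMN_2551387, whose accession is a cDNA clone, read 5.17 and 5.24 at 24 h and was not above background there, against 5.84 to 6.16 at 0 to 16 h. At 8 h, before the fall, ILMN_2636443 stood 0.66 and ILMN_2936517 0.55 above 0 h in this line. In 595sp VR the 24 h changes were -0.52 and -0.20.

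The test over both lines of an arm called 1 member probe. For ILMN_2636443 the sensitive lines changed by -1.48 ± 0.47 at 24 h (log2 ± SE, n = 2 lines, limma, adjusted p = 0.0359), which averages -2.67 in 595sp and -0.28 in 638bm, where the probe was not above background. For ILMN_2936517 the change was -1.17 ± 0.46 and did not pass (adjusted p = 0.0832). Of all 21955 tested probes 19.9% were called at this time in the sensitive lines, and 1 of the 11 member probes. The call held in 9 of 17 fits. It was lost without background correction, with the authors' processed values and with column block as a term, among others. It was also lost when 595sp, 595sp VR or 638bm VR was left out. The change was -2.67 without 638bm and -0.28 without 595sp, each from the lone sensitive line left. The resistant lines changed by -0.38 ± 0.47 on ILMN_2636443 (adjusted p = 0.826). The difference of responses, resistant minus sensitive, was 1.10 ± 0.66, with a 95% interval of -0.31 to 2.50 (adjusted p = 0.456). Without 638bm, which leaves 595sp as the only sensitive line, this difference was 2.29.

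**Figure D2:**
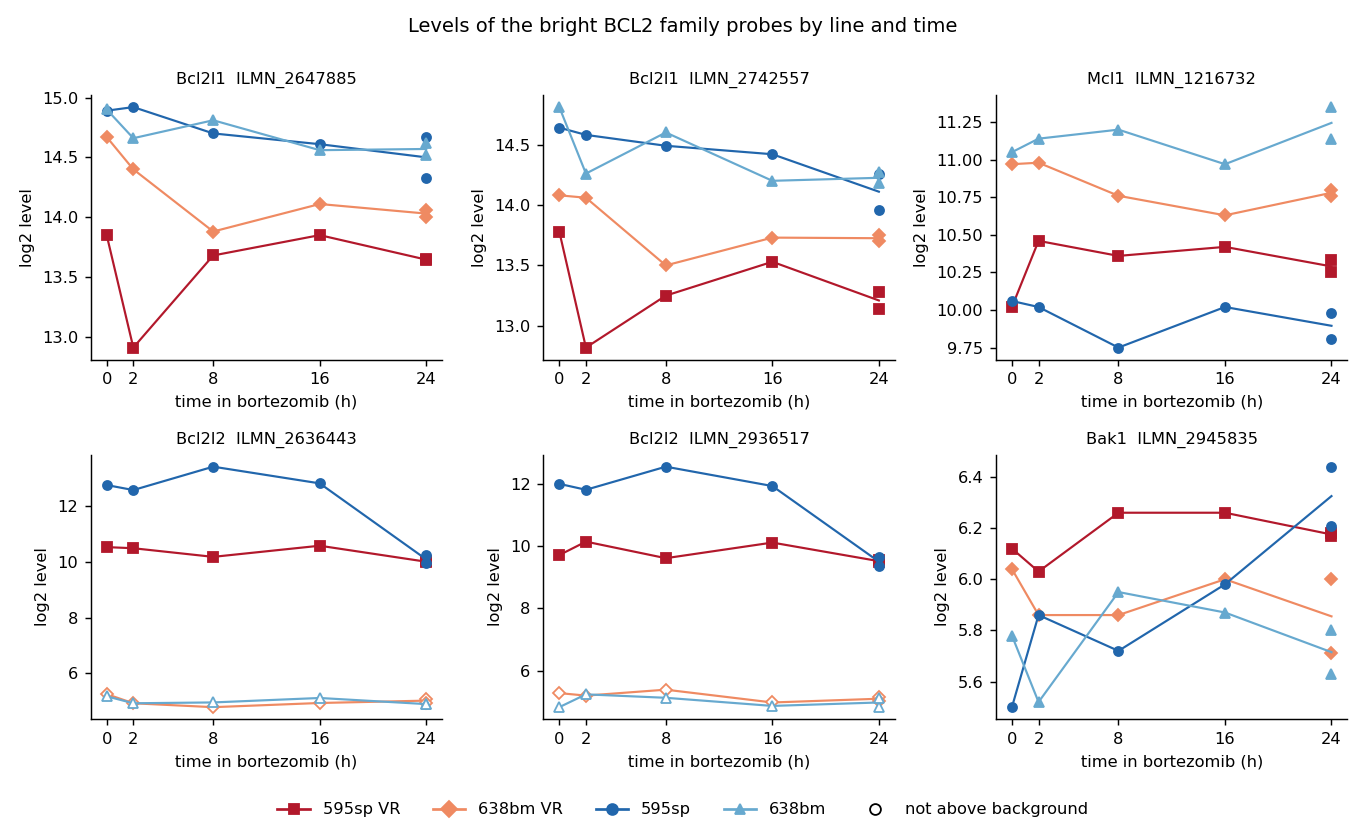
Log2 level of the 6 bright or always detected member probes against time in bortezomib (h) for the 4 lines, with every array as a point, open where not above background, and lines through the mean of each time. Bcl2l2 in 595sp drops at 24 h to the level of 595sp VR, and Bcl2l1 in both resistant lines stays below both sensitive lines at each of the 5 times.

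The other Bcl2l2 probes were dim. ILMN_2601572 stood above background on 19 arrays and read 5.06 to 6.18, and ILMN_1255755 on 16 arrays at 4.96 to 5.87. ILMN_2551387 stood above background on 6 arrays, 2 of 595sp VR and 4 of 595sp, at 4.62 to 6.16 over all arrays. The first of these pairs with the same RefSeq accession as the bright probes and did not separate the origins, with line means of 5.82 for 595sp VR, 5.69 for 638bm VR, 5.60 in 595sp and 5.31 in 638bm. On it the resistant line was the higher one in 10 of 10 matched pairs of values, which are not independent. The differences were 0.06 to 0.40 in the 595sp pair and 0.12 to 0.79 in the 638bm pair. In the 595sp pair at 0 to 16 h this was the opposite direction to the bright probes. In the 638bm pair the probe stood above background on 5 arrays of 638bm VR and 3 of 638bm. Averaged over the 5 times, resistant and sensitive lines differed by 0.30 ± 0.21 and this did not pass (limma, adjusted p = 0.629). How many of all tested probes kept a constant sign is not given here.

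Bcl2l1, the gene of Bcl-XL and a transgene of these tumours, was among the brightest signals of every array. On ILMN_2647885, 595sp VR read 13.85, 12.91, 13.68 and 13.85 at 0, 2, 8 and 16 h, and 13.65 and 13.64 at 24 h. On the same probe 638bm VR read 14.67, 14.40, 13.88 and 14.11, and 14.06 and 14.00 at 24 h. The sensitive 595sp read 14.89, 14.92, 14.70 and 14.61, and 14.67 and 14.33 at 24 h. Its counterpart 638bm read 14.90, 14.66, 14.81 and 14.56, and 14.52 and 14.62 at 24 h. The resistant line was the lower one of its pair at each of the 5 times in both pairs, and both resistant lines lay below both sensitive lines at matched times. The values of 638bm VR at 0 and 2 h lay within the range that the sensitive lines spanned over all times.

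The second bright probe, ILMN_2742557, gave the same order. Its range was 12.82 to 13.78 for 595sp VR and 13.50 to 14.08 for 638bm VR, against 13.96 to 14.64 in 595sp and 14.18 to 14.81 in 638bm. Both probes moved together within lines (Pearson r = 0.89 over the same 20 values). The matched difference of normalized levels, resistant minus sensitive, was below 0 in 10 of 10 pairs of values on each probe. On ILMN_2647885 it lay between -2.02 and -0.76 in the 595sp pair and -0.93 and -0.23 in the 638bm pair. On ILMN_2742557 it lay between -1.75 and -0.86 in the 595sp pair and -1.10 and -0.20 in the 638bm pair. The 10 values of a probe come from 2 pairs of lines and are not independent. How many of all tested probes kept a constant sign in this way is not given here. Differences between lines made up 77.5 and 78% of the variance of these probes, against a median of 62.3% over all tested probes.

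**Figure D3:**
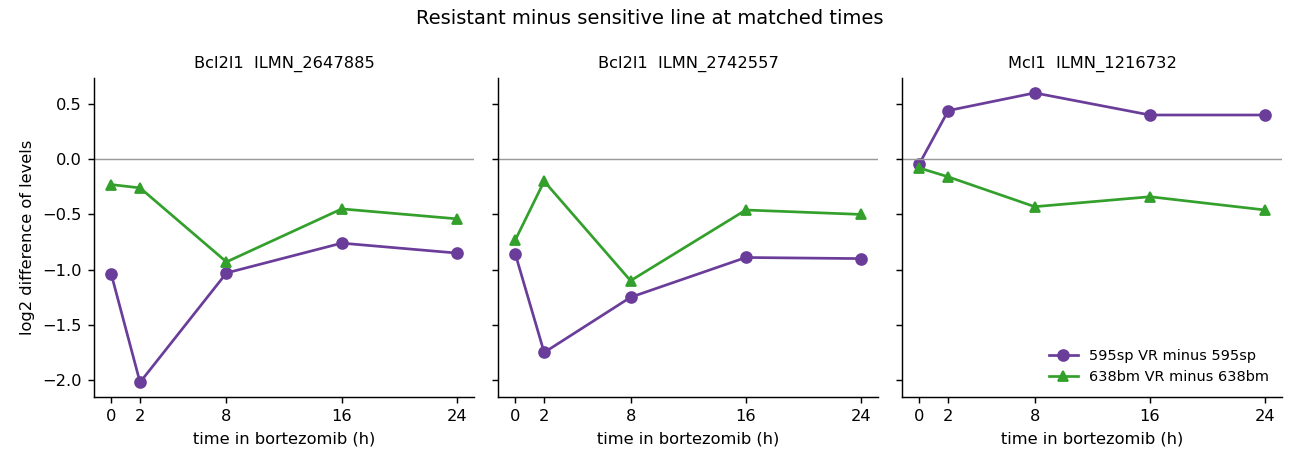
Log2 level of the resistant line minus that of the sensitive line of the same origin at each time in bortezomib (h), for both bright Bcl2l1 probes and Mcl1. All Bcl2l1 points lie below 0, and those of Mcl1 lie above 0 in the 595sp pair from 2 h on and below 0 in the 638bm pair.

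Averaged over the 5 times, Bcl2l1 differed between resistant and sensitive lines by -0.81 ± 0.27 on ILMN_2647885 (95% interval -1.63 to 0.01, limma, adjusted p = 0.445). On ILMN_2742557 the difference was -0.86 ± 0.25 (-1.62 to -0.10, adjusted p = 0.418). Untreated, ILMN_2742557 differed by -0.80 ± 0.28 (adjusted p = 0.473). None of these passed, and limma called 0 of the 21955 probes (percent called 0) in either comparison. At an unadjusted p under 0.05, 2262 probes (10.3%) and 1 member probe differed untreated, and 2469 probes (11.2%) and 1 member probe differed over the mean of times, ILMN_2742557 each time. On the second 24 h arrays, which lie in 1 column block, the differences were -0.69 and -0.62 on ILMN_2647885 and -0.68 and -0.48 on ILMN_2742557, in the 595sp and the 638bm pair. In the first block the untreated arrays of the 595sp pair differed by -1.04 and -0.86 on these probes.

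These signals lie near the top of the scale, which bears on their size. On ILMN_2647885 the deposited signal was 11675 to 20422 for 595sp VR and 18108 to 27959 for 638bm VR, against 19764 to 27576 in 595sp and 22728 to 32851 in 638bm. The brightest probe of an array had between 27661 and 38749. ILMN_2647885 ranked between 3 and 262 and ILMN_2742557 between 12 and 277 among 45281 probes. Quantile normalization sets such a value by its rank, and a signal close to the top can understate a difference. The sign of a difference can also differ between deposited signals and levels. On ILMN_2742557 at 16 h the deposited signal was 16942 for 595sp VR and 16683 for 595sp, against levels of 13.53 and 14.42. At 2 h it was 21118 for 638bm VR and 18780 for 638bm, against levels of 14.06 and 14.26. These arrays lie in different column blocks. In the other matched pairs on this probe the resistant line had the lower deposited signal.

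In bortezomib Bcl2l1 passed the test at no time, with times taken from the sample titles. The timepoint characteristic of the labels disagrees with the title in 4 samples. With its times, ILMN_2742557 passed in the sensitive lines at 24 h (-0.56, limma, adjusted p = 0.0421). ILMN_2647885 then passed in the resistant lines at 2 h (-0.87, limma, adjusted p = 0.0483). At 24 h the resistant lines changed by -0.42 ± 0.24 on ILMN_2647885 (95% interval -0.94 to 0.09, adjusted p = 0.518, limma), or -0.21 for 595sp VR and -0.64 for 638bm VR. The sensitive lines changed by -0.36 ± 0.24 (-0.87 to 0.15, adjusted p = 0.335), with -0.39 in 595sp and -0.33 in 638bm. On ILMN_2742557 the changes were -0.46 ± 0.22 in the resistant lines (adjusted p = 0.404) and -0.56 ± 0.22 in the sensitive lines (adjusted p = 0.087). All 4 lines had lower values at 24 h than at 0 h on both probes. The responses of the arms differed by -0.06 ± 0.34 (95% interval -0.79 to 0.66) on ILMN_2647885 and by 0.10 ± 0.31 (-0.56 to 0.76) on ILMN_2742557.

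The 2 h value of 595sp VR was the lowest of each bright Bcl2l1 probe, 12.91 and 12.82, and lies in another column block than its 0 h array. Within the second block, 595sp VR was 0.74 and 0.32 higher at 24 h than at 2 h on these probes. The 638bm VR arrays at 0 and 8 h lie in 1 block, and there the 8 h array was 0.79 and 0.58 lower, log2 changes of -0.79 and -0.58. The other Bcl2l1 probes, ILMN_2698430 and ILMN_1255430, read 4.48 to 5.65 and stood above background on 4 arrays and on none. ILMN_2698430 is paired with the same accession as the bright probes.

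Mcl1, the antiapoptotic protein that plasma cells depend on most, differed mainly by line. On ILMN_1216732, 595sp VR read 10.02, 10.46, 10.36 and 10.42 at 0, 2, 8 and 16 h, and 10.33 and 10.25 at 24 h. Its resistant counterpart 638bm VR read 10.97, 10.98, 10.76 and 10.63, and 10.80 and 10.76 at 24 h. The sensitive 595sp read 10.06, 10.02, 9.75 and 10.02, and 9.81 and 9.98 at 24 h. The line 638bm read 11.05, 11.14, 11.20 and 10.97, and 11.14 and 11.35 at 24 h. Both lines of 638bm origin lay above both lines of 595sp origin on every array. The share of all tested probes that separate the origins like this is not given here.

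Over the 5 times the mean was 10.31 ± 0.17 for 595sp VR and 10.82 ± 0.15 for 638bm VR, against 9.95 ± 0.13 in 595sp and 11.12 ± 0.11 in 638bm (SD over times). Differences between lines made up 92.8% of the variance of this probe, against a median of 62.3% over all tested probes. In the 595sp pair the resistant line minus the sensitive one was -0.04 at 0 h and 0.40 to 0.60 at the later times. In the 638bm pair the difference was -0.08 at 0 h and -0.16 to -0.46 later. The pairs differed in opposite directions after 0 h, and the mean over both and all times was 0.03 ± 0.27 (95% interval -0.79 to 0.86, limma, adjusted p = 0.968).

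In bortezomib Mcl1 mRNA passed the test at no time. At 24 h its change was 0.04 ± 0.19 in the resistant lines (95% interval -0.35 to 0.43, limma, adjusted p = 0.967) and 0.02 ± 0.19 in the sensitive lines (-0.38 to 0.41, adjusted p = 0.972). In 595sp VR the change was 0.27, and the 0 h array lies in the first column block while the later ones lie in others. Within the second block this line was at -0.13 at 24 h relative to 2 h. The deposited Mcl1 signal was 589.5 to 908 on all 6 arrays of the first block, against 1058 to 2270 on the other 18. The part of the column block in the level of the lines of 595sp origin was not tested. The second 24 h arrays, all in the fourth block, kept the order, with 10.25 for 595sp VR and 10.76 for 638bm VR against 9.98 in 595sp and 11.35 in 638bm.

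Bcl2, the family's founding antiapoptotic gene, was close to background throughout. Its 9 probes stood above background in 4 of 216 pairs of probe and array, 2 of them on ILMN_2682162, and their deposited signals lay between 36.78 and 82.71. The median signal of an array was 47.24 to 79.54. ILMN_2682162, the 1 tested probe, read 4.70 to 5.46 and changed by -0.03 ± 0.20 in the resistant lines (adjusted p = 0.977, limma) and -0.20 ± 0.20 in the sensitive lines (adjusted p = 0.549) at 24 h. Line means of the 9 probes lay between 4.37 and 5.22.

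Bak1, the effector measured here, was dim but above background on all 24 arrays. On ILMN_2945835, 595sp VR read 6.12, 6.03, 6.26 and 6.26 at 0, 2, 8 and 16 h, and 6.17 and 6.18 at 24 h. The line 638bm VR read 5.71 to 6.04. The line 595sp read 5.50, 5.86, 5.72 and 5.98, and 6.21 and 6.44 at 24 h, and 638bm read 5.52 to 5.95. The highest value, 6.44, was that of the second 24 h array of 595sp, and the resistant and sensitive lines overlapped.

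At 24 h Bak1 changed by -0.06 ± 0.20 in the resistant lines (adjusted p = 0.949, limma) and 0.38 ± 0.20 in the sensitive lines (adjusted p = 0.205). The sensitive value averages 0.83 in 595sp and -0.07 in 638bm. When 638bm was left out it rested on 595sp alone, at 0.83. The normalization adds an offset of 16 to every signal, which makes changes of a probe as dim as this one smaller than they are.

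**Figure D4:**
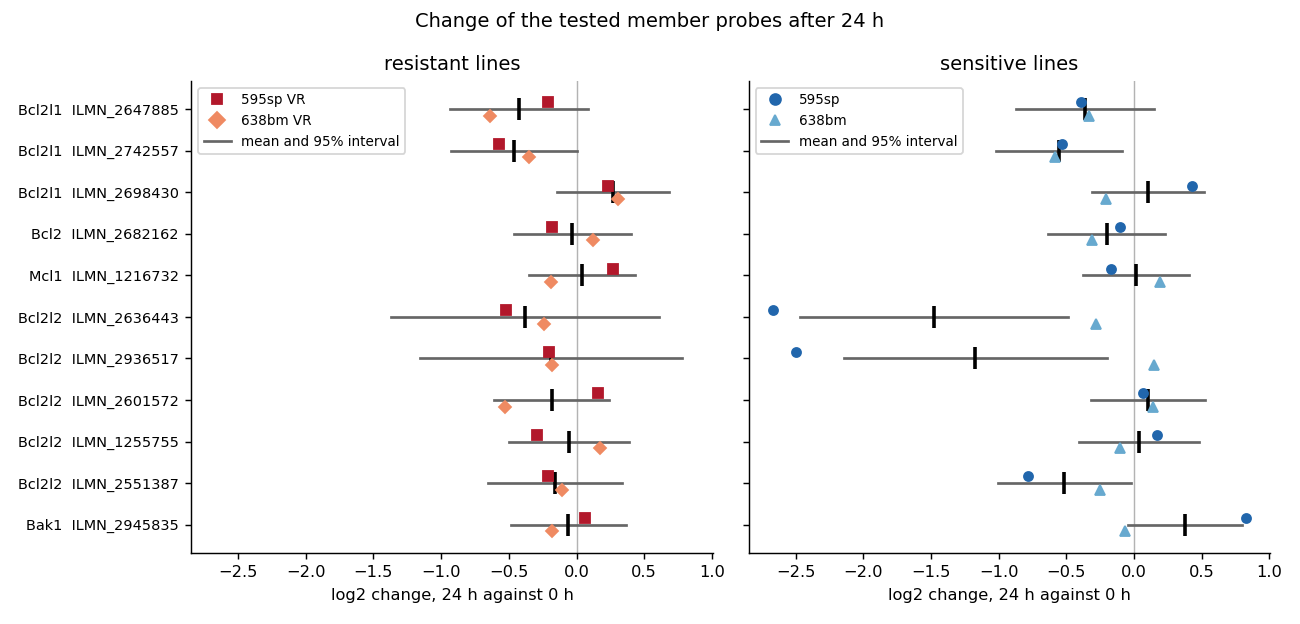
Log2 change of the 11 tested member probes at 24 h against 0 h, in the resistant lines (left) and the sensitive lines (right). Ticks and bars are the mean of both lines with its 95% interval from limma, and points are single lines; the 2 bright Bcl2l2 probes in 595sp, at -2.67 and -2.50, lie farthest from 0.

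Across all other comparisons no member probe was called. In the sensitive lines 0.0501, 4.04 and 6.38% of all probes were called at 2, 8 and 16 h, and 0 of the 11 members. In the resistant lines 0.861, 3.04, 1.02 and 1.25% were called at 2, 8, 16 and 24 h, again with 0 members, while 2 and 1 of the 11 members had an unadjusted p under 0.05 at 2 and 8 h, against 14.2 and 17.3% of all probes. For the difference of responses 0.975% of probes were called at 24 h and 0 at the earlier times, with 0 members. At an unadjusted p under 0.05 this comparison gave 672, 1532, 2189 and 3476 probes at 2, 8, 16 and 24 h (3.06, 6.98, 9.97 and 15.8%), and 0 members at any of the 4 times. The median change of the 11 probes at 24 h was -0.16 in the resistant lines, against 0.01 over all probes, and -0.20 in the sensitive lines, against 0.02 over all probes.

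The BH3-only genes, whose products switch on Bax and Bak or neutralise their guards, were read beside the members, 1 probe per gene. Of 8 tested, 0 were called higher and 1 lower in the resistant lines at 24 h, and 3 higher and 1 lower in the sensitive lines. Over all probes 1.25% were called in the resistant and 19.9% in the sensitive lines. Their median change was 0.00 in the resistant and 0.43 in the sensitive lines, against 0.01 and 0.02 over all tested probes.

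Bbc3, the gene of Puma, rose by 0.90 ± 0.23 in the sensitive lines (limma, adjusted p = 0.0105), with 0.81 in 595sp and 0.99 in 638bm. The resistant lines had 0.36 (595sp VR) and -0.25 (638bm VR). The difference of its responses, resistant minus sensitive, was -0.85 ± 0.32 and did not pass (adjusted p = 0.205). As a level, Bbc3 was higher in 638bm VR than in 638bm, at 10.18 against 8.34 untreated and 9.93 against 9.33 at 24 h. In the 595sp pair the resistant line read 8.80 against 8.94 untreated and 9.16 against 9.75 at 24 h. Bad, a BH3-only protein held by phosphorylation, rose by 0.66 ± 0.17 in the sensitive lines (adjusted p = 0.0137), with 0.95 in 595sp and 0.36 in 638bm. Bid, the link to death receptors, rose by 0.69 ± 0.22 (adjusted p = 0.0331), with 0.81 and 0.58 in these lines. Bbc3 stayed past the threshold with each line left out in turn. Bad did so in 1 of 4 such fits (adjusted p up to 0.291, lost without 595sp, 595sp VR or 638bm VR) and Bid in 0 of 4 (up to 0.208). Without cell line as a term of the model, the Bbc3 call was lost (limma, adjusted p = 0.635), as were those of Bad and Bid. The Bid call was also lost with column block as a term and with the times of the timepoint characteristic.

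Bmf, a BH3-only protein tied to the cytoskeleton, fell by 1.40 in the resistant lines (log2 change -1.40 ± 0.31, adjusted p = 0.0382) and by 0.98 in the sensitive lines (-0.98 ± 0.31, adjusted p = 0.0381). The single values were -1.36 for 595sp VR and -1.44 for 638bm VR, against -0.40 in 595sp and -1.55 in 638bm. Both calls were lost, among other settings, without background correction, with the authors' processed values and with column block as a term. In the resistant lines the call was also lost without 595sp VR or 638bm VR, with an adjusted p up to 0.87, and in the sensitive lines without 595sp VR, 638bm or 638bm VR, with one up to 0.534.

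Of 9 tested other relatives of the family, 1 was called lower and 0 higher in each arm, against 1.25% of all probes called in the resistant and 19.9% in the sensitive lines. This was Bnip3l, the gene of the mitophagy receptor Nix, which fell by 1.02 in the resistant lines (log2 change -1.02 ± 0.20, limma, adjusted p = 0.0198) and by 0.66 in the sensitive lines (-0.66 ± 0.20, adjusted p = 0.0305). It was lower at 24 h in each line, with -0.71 for 595sp VR and -1.33 for 638bm VR, against -0.49 in 595sp and -0.83 in 638bm. Leaving out 595sp VR or 638bm VR took the call from the resistant arm (adjusted p up to 0.913), and leaving out any 1 line took it from the sensitive arm (up to 0.208).

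Of 10 tested genes of the apoptosome, the caspases and their inhibitors, 0 were called in the resistant lines at 24 h, and 2 higher and 2 lower in the sensitive lines, against 1.25 and 19.9% of all probes called in these arms. Diablo, whose product releases caspases from their inhibitors, rose by 0.72 ± 0.20 (limma, adjusted p = 0.0183), with 0.48 in 595sp and 0.97 in 638bm. Htra2, a mitochondrial protease, fell by 0.93 (log2 change -0.93 ± 0.24, adjusted p = 0.0134), with -1.65 in 595sp and -0.20 in 638bm. Aifm1, the apoptosis-inducing factor of mitochondria, fell by 0.97 (-0.97 ± 0.28, adjusted p = 0.0228), with -0.30 in 595sp and -1.63 in 638bm. Apaf1, the scaffold of the apoptosome, was the fourth and was named after its values were seen (0.67 ± 0.19, adjusted p = 0.0236). Aifm1, Diablo and Htra2 each stayed past the threshold in 1 of 4 fits that left out a line, and Apaf1 in 0 of 4, with adjusted p up to 0.522, 0.226, 0.633 and 0.166.

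Of 10 tested binding partners and stability factors of the members, 0 were called in the resistant lines, and 1 lower and 0 higher in the sensitive lines, where 1.25 and 19.9% of all probes were called. Tmbim6, the gene of Bax inhibitor 1 of the endoplasmic reticulum, fell by 0.94 in the sensitive lines (log2 change -0.94 ± 0.18, limma, adjusted p = 0.00191), with -1.11 in 595sp and -0.77 in 638bm. Its values were -0.23 for 595sp VR and -0.17 for 638bm VR. The difference of its responses, resistant minus sensitive, was 0.74 ± 0.25 and did not pass (limma, adjusted p = 0.167). Untreated, Tmbim6 read 11.84 in 595sp VR and 11.46 in 638bm VR, against 13.43 in 595sp and 12.99 in 638bm. At 24 h it read 11.61 and 11.29 in the resistant lines, against 12.32 and 12.22 in the sensitive ones. Without cell line as a term of the model, the call in the sensitive lines was lost (adjusted p = 0.189). The call was kept with each line left out in turn.

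The genes whose probes moved most like each member, after the mean of each line was removed, were ranked among 10764 genes over the 20 line-by-time values. Prrc1 (Pearson r = 0.93) and Ndel1 (0.91) came closest to Bcl2l2. For Bcl2l1 they were Plcz1 (0.85) and Asph (0.78), and for Mcl1 Slc39a1 (0.76) and Nprl3 (0.76). For Bak1 they were Bag6 (0.93) and Mpv17 (0.86), and for Bcl2, at background, Ripk4 (0.80) and Tti1 (0.74). The values share arrays and were picked as the highest of many, so that they describe these arrays alone.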

How the data were processed

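Total RNA of the 4 lines was labelled with biotin and hybridised to 1-colour Illumina bead arrays, per the labels' protocols. The deposited table used holds average signal intensity values per probe and array, without normalization, per the file headers. A deposited table of the authors' processed intensity values, also on a linear scale, served as an alternative; no source used here names the software. Neither holds detection p-values or control probes, so a background step that needs them was replaced.

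The normexp method with an offset of 16 (limma 3.58.1 in R 4.3.3) corrected the background, and quantile normalization and log2 followed. Both 24 h arrays of a line were averaged, which left 20 values. Changes were tested with limma in a model of cell line and arm by time, with 8 residual and 8.11 prior degrees of freedom. The comparisons of untreated lines and of means over times had 1 residual and 3.28 or 2.34 prior degrees of freedom. P-values were adjusted by Benjamini-Hochberg over all 21955 probes, with a threshold of 0.05, and errors are standard errors unless given as SD. The cell line pairs the values of an arm, since the same line runs through all times; the difference between both lines of an arm correlated at r = 0.76 to 0.90 between times. The arrays closest to each other, both 638bm arrays at 24 h, still differed by a root mean square of 0.189 on the log2 scale.

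The platform annotation gave 34885 probes 1 symbol, 18 several and 10378 none. The named genes are all member probes, up to 3 called genes with the smallest adjusted p per list and arm at 24 h, and the 2 most alike genes per member. The members, lists and markers were chosen with earlier results of these data known. The timepoint characteristic and the title disagree in 4 samples of 638bm VR, and times were taken from the titles. Column blocks are runs of 6 consecutive columns. The model was tested on simulated data. Alternatives covered background correction, normalization, filters, probes per gene, 24 h arrays, time labels, the replicate block, column block and single lines left out. Control probe data and probe sequences were not used here.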

Additional observations from a re-analysis of the deposited data

Results flagged for a closer look

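Bak1 on ILMN_2945835 had changes of opposite sign in the lines of each origin at 24 h. They were above 0 for 595sp origin (0.06 in 595sp VR and 0.83 in 595sp) and below 0 for 638bm origin (-0.18 in 638bm VR and -0.07 in 638bm). Only the change in 595sp was larger than the SD of 0.19 to 0.27 between both 24 h arrays of a line. Second minus first 24 h array, this probe differed by 0.01 in 595sp VR, 0.24 in 595sp, -0.29 in 638bm VR and -0.17 in 638bm. The mean change of the 595sp pair minus that of the 638bm pair was 0.57, and this difference was not tested.

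Bcl2l2 on ILMN_2636443 at 16 h stood slightly above 0 h in both lines of 595sp origin (0.05 in 595sp VR and 0.06 in 595sp). It stood below 0 h in both lines of 638bm origin (-0.32 in 638bm VR and -0.06 in 638bm), with a difference of 0.24. The probe was not above background in the lines of 638bm origin, and this difference was not tested either. The second bright probe, ILMN_2936517, did not split by origin, with 0.40 in 595sp VR, -0.08 in 595sp, -0.30 in 638bm VR and 0.04 in 638bm.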

How the results depend on the processing

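The number of arrays and of lines limits the precision, and dim probes carry little signal over background. Of the 11 tested member probes, the sensitive lines gave 1 call. They gave 0 without background correction, with normexp offset 50, with the authors' processed values, with column block as a term and with no replicate block. With the times of the timepoint characteristic they gave 2, Bcl2l2 ILMN_2636443 and Bcl2l1 ILMN_2742557, both at 24 h. Leaving out 1 line gave 0 to 4 calls, 4 without 638bm and 0 without 595sp, 595sp VR or 638bm VR. The resistant lines gave 0 calls, and 1 with the times of the timepoint characteristic, Bcl2l1 ILMN_2647885 at 2 h. The difference of responses gave 0 calls, and 0 to 2 with 1 line left out, 2 of them without 638bm. Where samples were left out the number of samples differs by construction; elsewhere the cause was not tested. The untreated comparison gave 0 calls in every fit that had a test. It could not be fitted with column block, and with 1 line left out it has no residual degrees of freedom and gives values only. Fits with 1 line in an arm assume that the lone line varies like the others.

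Of 24 changes of 6 probes under 17 alternatives, some of which touch only part of the changes, 326 values kept direction and side of the threshold, 8 lost and 5 gained it, 8 without a test moved by more than a standard error, and 29 changed sign, none of them past the threshold before or after. With median scaling the signs changed for the difference of responses of Bcl2l1 ILMN_2647885 (0.124), untreated Mcl1 (0.094) and Bak1 in the resistant lines (0.046). With the first 24 h arrays alone they changed for the difference of responses of Bcl2l1 ILMN_2742557 (-0.025), Mcl1 in the sensitive lines (-0.081) and Bak1 in the resistant lines (0.01), and with the second alone for the difference of Mcl1 (-0.097). With the times of the timepoint characteristic the difference of ILMN_2647885 was 0.037. With column block it was 0.129, and in the resistant lines Mcl1 was at -0.031, Bcl2l2 ILMN_2636443 at 0.007 and ILMN_2936517 at 0.021, with Mcl1 at -0.037 in the sensitive lines. With 1 line left out, the sensitive change ranged between -0.165 and 0.195 for Mcl1, -2.496 and 0.155 for ILMN_2936517 and -0.073 and 0.828 for Bak1. The resistant change ranged between -0.19 and 0.268 for Mcl1 and -0.179 and 0.06 for Bak1. The difference of responses ranged between -0.282 and 0.155 for ILMN_2647885, -0.016 and 0.206 for ILMN_2742557, -0.204 and 0.254 for Mcl1, -0.1 and 2.291 for ILMN_2636443, -0.345 and 2.306 for ILMN_2936517 and -0.887 and 0.013 for Bak1. Untreated, ILMN_2636443 ranged between -2.233 and 0.084 and ILMN_2936517 between -2.282 and 0.453. The values within 1 column block and the repeat of the list counts under these settings were chosen after seeing the data.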
